A study of Mus musculus with 16 samples.

Results

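MAC-1+ HSCs isolated 4 weeks after transplantation were compared with the MAC-1low HSCs of the same stage, gene by gene. The samples were chosen by their labels, 3 of 4 week MAC-1+ and 4 of 4 week MAC-1low HSCs, so that 7 of the 16 samples of the series entered the comparison. All were wild-type cells of the B6.SJL strain. Donor LSK cells (CD3e-, B220-, Gr-, NK1.1-, Ter119-, cKit+ and Sca1+), 8000 per recipient, had been given to hosts irradiated with 900 cGy, and 4 weeks later cKit-enriched bone marrow was sorted for live LSK cells that were CD48- and CD150+. The 3 samples of 4 week MAC-1- HSCs came from the same procedure and are given beside the results, while the 6 samples of non-transplanted steady-state (SS) HSCs entered the fit but not the comparison. RNA was amplified with SMART-Seq v4, a method that copies whole transcripts from few cells, and made into libraries with Nextera XT. The labels do not say whether replicates came from separate animals, so that every p-value measures only the spread between these samples.

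MAC-1 is an integrin on the surface of leukocytes, built from the alpha chain CD11b (*Itgam*) and the beta chain CD18 (*Itgb2*), with which granulocytes and monocytes bind endothelium and complement-coated particles. Hematopoietic stem cells of unperturbed marrow carry little of it. After transplantation, stem cells first divide to rebuild the blood system and then return to quiescence, the resting state in which most adult stem cells are held. A part of the stem cell pool carries RNAs of the megakaryocyte lineage, which gives rise to platelets, and is known to produce platelets preferentially.

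Total counts ran from 14675234 to 28017703 in the 7 samples, and between 15071 and 16675 genes were detected in each. Of 46078 genes, 13661 passed the filter on low counts. Across these, log2 CPM (counts scaled to a common library size, with TMM factors) correlated at r = 0.747 to 0.756 between MAC-1+ samples, at 0.788 to 0.805 between MAC-1low samples and at 0.753 to 0.780 between the populations, so that MAC-1+ samples resembled each other no more than they resembled MAC-1low samples. The biological coefficient of variation, fitted over all 16 samples, was 1.13. SS samples correlated with their own group at a mean r of 0.702 to 0.742. That mean was 0.750 to 0.754 in MAC-1+ and 0.792 to 0.800 in MAC-1low samples. Of the tested genes, 8.11 to 12.5% had no count in a given sample of the 7. Mitochondrially encoded genes held 7.02 to 9.62% of the counts in MAC-1+ and 6.56 to 9.55% in MAC-1low samples. MAC-1+ replicate 3 stood apart from the other samples in RNAs of neutrophil granules, and results that rest on it are given with and without it. In bulk RNA, fewer cells of a kind and less RNA per cell cannot be told apart.

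No gene passed an adjusted p of 0.1 with an absolute log2 fold change above 1 in edgeR's quasi-likelihood test (0% of 13661, in either direction). At an unadjusted p below 0.05, 306 genes were higher in MAC-1+ HSCs (2.24%) and 630 were lower (4.61%), 936 in all (6.85%). The CPM of the populations did not overlap for 512 genes higher (3.75%) and 612 genes lower (4.48%) in MAC-1+ HSCs, 8.23% together. DESeq2, the tool named in the submitters' processing notes, called 269 genes in the same set, 58 higher (0.425%) and 211 lower (1.54%), and limma-voom called 1 (0.00732%), *Wfdc17*. Of the genes called by DESeq2, the populations did not overlap for 129, and 214 had an unadjusted p below 0.05 in edgeR. One DESeq2 call, named after its values were seen, was *Ighm*, the immunoglobulin heavy chain, which had 230 counts in MAC-1low replicate 2 and none in the other 6 samples. Without MAC-1+ replicate 1, edgeR called 18 genes, 3 higher and 15 lower, and without MAC-1+ replicate 3 it called 2, *Rab4a* and *Sdf2l1*, both lower and named after their values were seen.

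**Figure D1:**
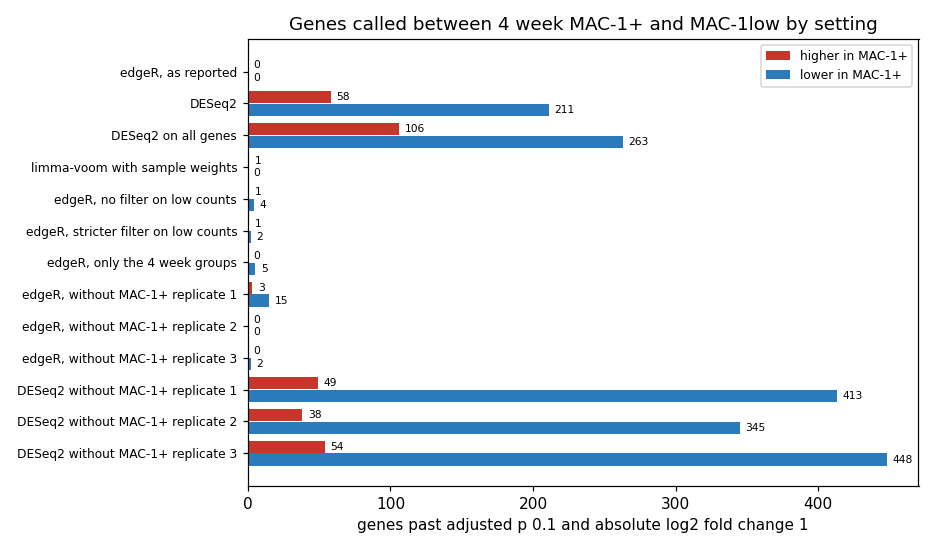
Number of genes past an adjusted p of 0.1 and an absolute log2 fold change of 1 (x axis) under 13 settings (y axis), higher in red and lower in blue in 4 week MAC-1+ against MAC-1low HSCs. The edgeR test used in the text called 0 genes, DESeq2 called 58 higher and 211 lower, and every DESeq2 setting called more lower than higher genes.

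The transcript of the sorted antigen itself was the first check of the labels. *Itgam* (chr7:128062640-128118491, + strand, GENCODE M21 on GRCm38), encoding CD11b, gave 175, 478 and 96 counts in MAC-1+ replicates 1 to 3, against 6, 95, 21 and 3 in MAC-1low replicates 1 to 4 and 0, 47 and 0 in the MAC-1- samples. In CPM, the lowest MAC-1+ sample (3.80) was below the highest MAC-1low sample (4.36), so that the populations overlapped. Its mean was 14.04 ± 14.02 CPM (SD, n = 3) in MAC-1+ and 1.48 ± 1.96 CPM (SD, n = 4) in MAC-1low HSCs, a log2 fold change of 3.24 with a standard error of 1.88 (edgeR, adjusted p = 0.799). *Itgb2*, encoding the shared beta chain CD18, had 180, 242 and 403 counts in MAC-1+ and 215, 492, 170 and 84 in MAC-1low samples, with fully overlapping CPM (log2 fold change 0.15, standard error 1.28). *Itgal*, the alpha chain of the related integrin LFA-1, had means of 11.5 and 6.23 CPM and also overlapped. *Itgad* and *Itgax*, the remaining alpha chains that pair with CD18, were not tested, having 0 counts in all MAC-1+ samples and at most 3 in a MAC-1low sample. Cells had been sorted on surface protein, and its level in these samples was not analysed here.

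Because the comparison is defined by this gene, the 250 bases upstream of the *Itgam* start are shown (RefSeq, GRCm38.p6, chr7:128062390-128062639, + strand, written from 5′ to 3′). Capitals mark GAGGAA on either strand, letters of the kind bound by the myeloid factor PU.1 (*Spi1*). They occur 2 times here, and 23.3% of 32851 RefSeq promoter windows of the same length hold them.
Itgam: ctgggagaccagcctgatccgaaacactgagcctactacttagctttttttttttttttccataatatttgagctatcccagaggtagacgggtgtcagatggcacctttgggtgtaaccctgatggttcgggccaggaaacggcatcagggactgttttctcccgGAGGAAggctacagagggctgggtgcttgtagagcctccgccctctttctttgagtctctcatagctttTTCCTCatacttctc

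**Figure D2:**
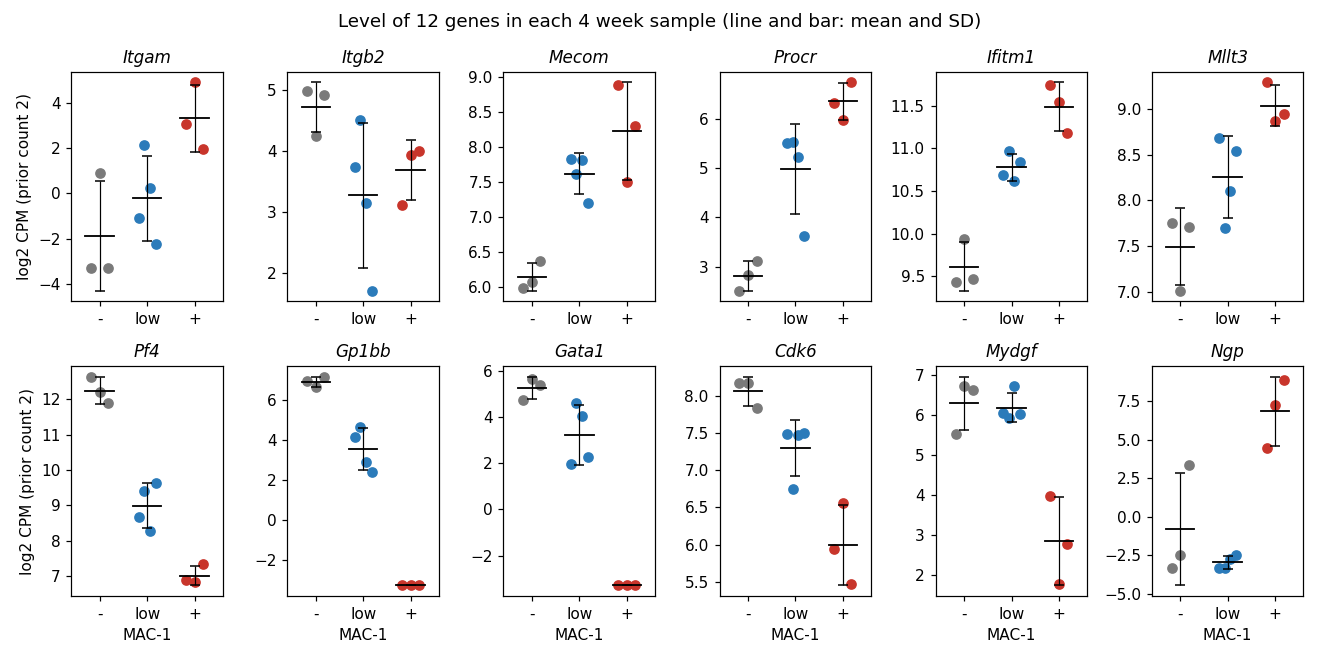
Log2 CPM (y axis, prior count of 2) of 12 genes in each 4 week sample, by MAC-1 level of the sorted HSCs (x axis), with the mean and SD of 3 MAC-1-, 4 MAC-1low and 3 MAC-1+ samples. *Itgam* and *Itgb2* overlap between MAC-1low and MAC-1+ samples, *Pf4*, *Cdk6* and *Mydgf* lie lower and *Procr* and *Ifitm1* higher in every MAC-1+ sample, and *Gp1bb* and *Gata1* have no count in MAC-1+ samples.

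RNAs of the sort gate were present to differing degrees. *Kit* (309 and 252 CPM in MAC-1+ and MAC-1low HSCs), *Ly6a*, which encodes SCA1 (1059.9 and 662 CPM), and *Ptprc*, which encodes the pan-leukocyte antigen CD45 (926 and 632 CPM), were present at high levels in all 7 samples. *Slamf1*, encoding CD150, on which the cells were selected, and *Cd48*, whose protein was gated out, are named after their values were seen. *Slamf1* was uneven, with 168, 2 and 3260 counts in MAC-1+ and 3665, 1016, 1704 and 712 in MAC-1low samples. *Cd48* had 957, 0 and 1045 counts in MAC-1+ and 1116, 2034, 1172 and 2853 in MAC-1low samples, and its CPM did not overlap, with lower values in MAC-1+ HSCs (log2 fold change -1.51 ± 1.71, SE, edgeR adjusted p = 1).

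All 12 genes of the HSC signature had positive log2 fold changes, with a median of 0.72 against -0.00207 over all tested genes, of which 49.7% were positive. None passed the adjusted threshold, 7 had an unadjusted p below 0.05 (58.3% of the list, against 2.24% of all genes in this direction), and 5 did not overlap between the populations (41.7%, against 3.75%). The study had picked these genes on the same samples, so their direction is not independent evidence. Summed over the list, the level was 4879, 3539 and 3336 CPM in MAC-1+ replicates 1 to 3 and 2770, 2368, 2265 and 2296 in MAC-1low replicates 1 to 4. Every MAC-1+ sample was above every MAC-1low sample. The median stayed between 0.59 and 0.88 when any 1 sample of the series was left out. The number with an unadjusted p below 0.05 was 3, 6 and 6 without MAC-1+ replicate 1, 2 or 3. Of all genes, 2.55, 2.18 and 2.43% were higher at that p in these settings.

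*Procr*, which encodes EPCR, a surface receptor used to isolate stem cells, had 1694, 1008 and 2704 counts in MAC-1+ and 743, 1006, 730 and 327 in MAC-1low samples. All MAC-1+ samples lay higher in CPM (83.6 ± 22.0, SD, n = 3, and 35.4 ± 15.9, SD, n = 4), with a log2 fold change of 1.24 and a standard error of 0.55 (edgeR, adjusted p = 0.718). *Mllt3*, a chromatin reader that sustains stem cell self-renewal, had 530 ± 85.4 and 316 ± 92.2 CPM, also without overlap (log2 fold change 0.74 ± 0.25, SE, edgeR adjusted p = 0.626). *Uba7*, the activating enzyme of the ubiquitin-like protein ISG15, and *Glipr1l1* did not overlap either, with log2 fold changes of 0.52 and 1.26.

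The transcription factors *Mecom* and *Hlf*, both needed for stem cell maintenance, overlapped between the populations because of single samples. *Mecom* had 10007, 2889 and 7953 counts in MAC-1+ and 3719, 4275, 4378 and 3929 in MAC-1low samples (log2 fold change 0.70 ± 0.27, SE, edgeR adjusted p = 0.682). Its MAC-1+ replicate 2 (181 CPM) was within the range of the MAC-1low samples (147 to 228 CPM). *Hlf* had means of 668 and 361 CPM, *Fgd5*, an exchange factor restricted to stem cells within marrow, 34.4 and 14.3 CPM, and *Socs2*, a feedback inhibitor of cytokine receptors, 312 and 209 CPM. *Nupr1*, *Kit* and *Ly6a* had log2 fold changes of 0.46, 0.30 and 0.68. *Kit* is the member closest to no difference, at -0.0017 without MAC-1+ replicate 2.

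Among 33 further HSC genes, 21 had positive and 12 negative log2 fold changes, with a median of 0.42. The clearest was *Ifitm1*, an interferon-induced membrane protein gene that is abundant in stem cells. It had 72420, 47357 and 58848 counts in MAC-1+ and 26952, 43655, 30431 and 49050 in MAC-1low samples. In CPM, all MAC-1+ samples were higher (log2 fold change 0.72 ± 0.16, SE, with an adjusted p of 0.438 in edgeR and 0.00201 in DESeq2). *Hoxa9*, a homeobox factor of stem cell expansion, and *Lmo2*, a bridging factor of the stem cell transcription complex, also did not overlap, at 254 against 151 and 1142 against 854 CPM. Of this list, 5 genes were higher and 1 lower at an unadjusted p below 0.05 (15.2% and 3.03%, against 2.24% and 4.61% of all genes). For 4 higher and 1 lower the populations did not overlap (12.1% and 3.03%, against 3.75% and 4.48%). The median of this list was 0.13 without MAC-1+ replicate 1. Without MAC-1+ replicate 3, 4 were higher and 3 lower at that p, against 2.43% and 3.85% of all genes.

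**Figure D3:**
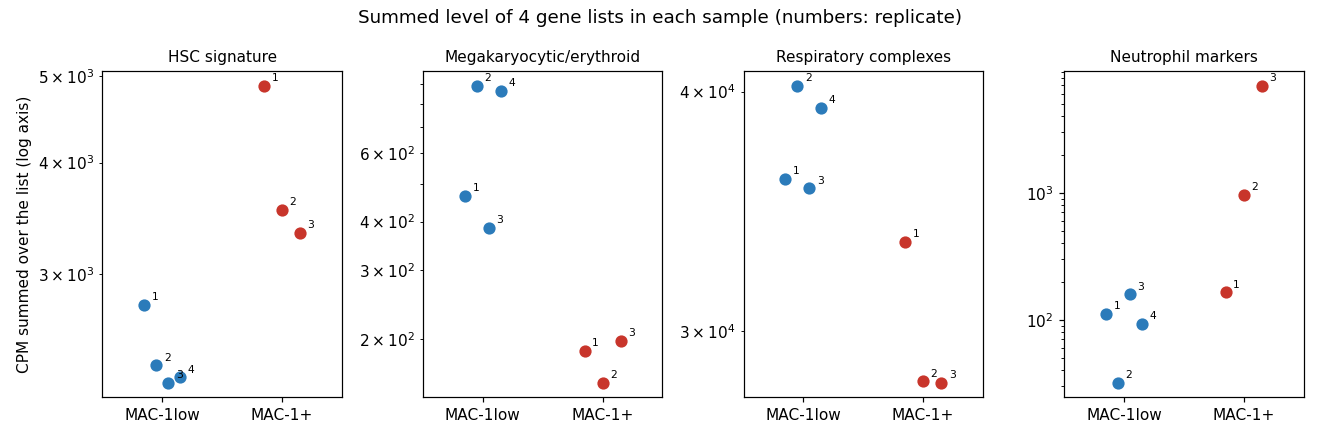
Summed CPM (log y axis) of 4 gene lists in each sample of 4 week MAC-1low (blue) and MAC-1+ (red) HSCs, numbered by replicate. The HSC signature is higher and the megakaryocytic/erythroid and respiratory lists are lower in each MAC-1+ sample than in each MAC-1low sample, and the neutrophil markers spread from 164 to 6980 CPM among MAC-1+ samples.

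All 8 megakaryocytic/erythroid genes named by the study had negative log2 fold changes, with a median of -2.19. None passed the adjusted threshold, 3 had an unadjusted p below 0.05 (37.5% of the list, against 4.61% of all genes in this direction) and 3 did not overlap (37.5%, against 4.48%). These genes too were picked on the same samples, so the count is not independent evidence of their direction. Their summed level was 186, 154 and 198 CPM in MAC-1+ samples and 466, 894, 386 and 866 CPM in MAC-1low samples. The lowest MAC-1low sample was thus well above the highest MAC-1+ sample. *Pf4* made up most of these sums.

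*Pf4* (chr5:90772435-90773383, + strand) encodes platelet factor 4, a chemokine of platelet granules. It had 2458, 1799 and 4041 counts in MAC-1+, 6619, 14784, 5953 and 21017 in MAC-1low and 101422, 124727 and 62537 in MAC-1- samples, so that the 3 populations were ordered without overlap. The log2 fold change between MAC-1+ and MAC-1low HSCs was -2.07 with a standard error of 0.36 (edgeR, adjusted p = 0.250, shared with 1 unnamed transcript as the smallest of all, and 1.5e-07 in DESeq2). Leaving out any 1 sample kept the log2 fold change between -2.26 and -1.84 and the adjusted p in edgeR between 0.146 and 0.742. When at least 10 CPM in 3 samples were required, which left 9815 genes, the adjusted p was 0.0875, past the threshold.

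*Gata1*, the master transcription factor of the erythroid and megakaryocyte lineages, had no count in the 3 MAC-1+ samples and 62, 522, 316 and 126 in the MAC-1low samples, an at least 81.3-fold lower mean CPM when 3 counts are allowed per MAC-1+ sample. Such bounds and the intervals given for ratios cover counting error only, since reads without molecular identifiers are not independent molecules. *Gp9*, a subunit of the platelet receptor for von Willebrand factor, had 76, 52 and 0 counts in MAC-1+ and 173, 727, 81 and 587 in MAC-1low samples, and its CPM did not overlap. *Mfsd2b*, a sphingosine-1-phosphate exporter of red cells and platelets, had 3, 22 and 8 counts in MAC-1+ and 8, 489, 39 and 105 in MAC-1low samples (log2 fold change -3.56, standard error 1.41), of which MAC-1low replicate 2 was far above the others. *Itga2b*, the platelet integrin chain CD41, had 4.09 and 8.67 CPM and overlapped. *Gfi1b* and *Klf1*, transcription factors of red cell and platelet formation, overlapped widely, with *Klf1* at 0 in 4 of the 7 samples. *Vwf*, which marks platelet-biased stem cells, had a log2 fold change of -0.03 with a standard error of 0.56, from 26.4 ± 19.7 CPM (SD, n = 3) in MAC-1+ and 26.9 ± 10.4 CPM (SD, n = 4) in MAC-1low HSCs, while the MAC-1- samples had 83.2 to 116 CPM.

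The 29 tested genes of a second megakaryocyte and platelet list were less uniform, with 19 negative and 10 positive log2 fold changes and a median of -0.32. Of them, 5 had an unadjusted p below 0.05 and 4 did not overlap, all lower in MAC-1+ HSCs (17.2% and 13.8% of the list, against 4.61% and 4.48% of all genes). The median was -0.61 without MAC-1+ replicate 3. *Gp1bb* (chr16:18620317-18622403, - strand), another subunit of the receptor that holds GP9, had 0 counts in each MAC-1+ sample, 282, 543, 143 and 136 in MAC-1low and 1931, 2591 and 2312 in MAC-1- samples. That is at least 91.2-fold lower in MAC-1+ than in MAC-1low HSCs. *F2rl2*, the thrombin receptor PAR3, had 0, 0 and 4 counts in MAC-1+ and 214, 267, 206 and 485 in MAC-1low samples. *Tuba8*, a tubulin gene, had 0, 0 and 1 counts in MAC-1+ and 256, 571, 664 and 12 in MAC-1low samples, a ratio of pooled counts per depth of 1111 (counting interval 199 to 43916). *Ctla2a*, a protease inhibitor gene of much higher level, had 20654, 15612 and 36621 counts in MAC-1+ and 26459, 39571, 37950 and 55033 in MAC-1low samples and did not overlap in CPM (log2 fold change -0.71 ± 0.16, SE, edgeR adjusted p = 0.438). On its adjusted p alone, which 1.84% of all genes passed as lower and 0.49% as higher, DESeq2 had 3 members of the first list (*Pf4*, *Gata1* and *Mfsd2b*) and 4 of the second (*Gp1bb*, *F2rl2*, *Tuba8* and *Ctla2a*) as lower and none as higher. At their bounds *Gata1* and *Gp1bb* still lie below the medians of their lists, so placing them there could not move these medians.

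For *Gp1bb*, as the gene with the widest gap in counts among the platelet genes that are silent in every MAC-1+ sample, the 250 upstream bases are shown (RefSeq, GRCm38.p6, chr16:18622404-18622653, - strand, from 5′ to 3′). Capitals mark letters of the kind bound by GATA factors, AGATAA or AGATAG or TGATAA or TGATAG on either strand, found 1 time. Of the 40 genes of both megakaryocyte lists, 31 matched a RefSeq promoter entry and 13 of these hold such letters (41.9%), against 26.5% of all 32851 windows of this length and 5 of 11 neutrophil markers (45.5%). The PU.1 letters given for *Itgam* are held by 13 of the same 31 promoters too (41.9%, against 23.3% of all). A match describes letters and is no evidence of binding.
Gp1bb: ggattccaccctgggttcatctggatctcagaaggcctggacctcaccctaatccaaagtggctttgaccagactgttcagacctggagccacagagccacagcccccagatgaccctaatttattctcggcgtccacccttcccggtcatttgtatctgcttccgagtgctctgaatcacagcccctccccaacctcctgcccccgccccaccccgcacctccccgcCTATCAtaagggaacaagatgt

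**Figure D4:**
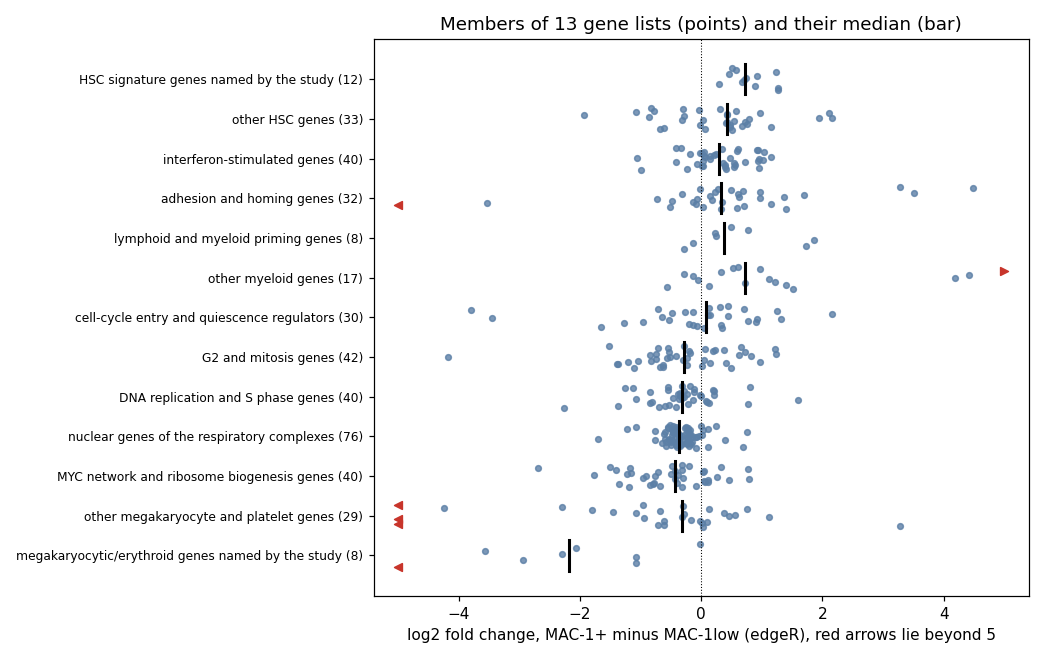
Log2 fold change of MAC-1+ against MAC-1low HSCs (x axis, edgeR) for each tested member of 13 gene lists (y axis, number of members in brackets), with the median as a black bar and red arrows for values beyond 5. The medians run from 0.72 in the HSC signature to -2.19 in the megakaryocytic/erythroid genes, and the respiratory genes form a narrow cloud with 68 of 76 below 0.

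Lymphoid and myeloid priming was read from 7 genes that the study names in its text, with *Ets* taken as *Ets1*, and from *Ikzf2*, which that text does not name. Of these 8 genes none had an unadjusted p below 0.05, and 6 had a positive log2 fold change, *Ikzf2* among them, with a median of 0.37. The study had picked them on the same samples, so their direction is not independent evidence. *Gfi1*, a repressor that guides granulocyte formation, had 1129, 835 and 2374 counts in MAC-1+ and 359, 313, 609 and 144 in MAC-1low samples, without overlap (log2 fold change 1.87 ± 1.54, SE, edgeR adjusted p = 0.967). *Notch2*, a receptor that directs lymphoid and marginal zone fates, was the other member without overlap, at 53.0 and 31.1 CPM. These 2 genes are 25% of the list, against 3.75% of all genes that were higher without overlap. *Spi1*, encoding PU.1, had 52.5 and 37.2 CPM and overlapped by 1 MAC-1low sample at 52.6 CPM. *Ets1* was uneven, with 278, 768 and 198 counts in MAC-1+ and 47, 451, 52 and 40 in MAC-1low samples. *Flt3*, the cytokine receptor of multipotent and lymphoid progenitors, *Ikzf1* and *Ikzf2*, Ikaros-family factors of lymphoid development, and *Cd86*, a costimulatory ligand, had log2 fold changes of -0.13, 0.24, 0.23 and -0.29. Leaving out single samples moved *Flt3* between -0.58 and 0.38, *Cd86* between -2.47 and 0.42 and *Ikzf1* between -0.18 and 0.48, so that the direction of all 3 rested on single samples. *Gimap6*, a GTPase gene of lymphocytes from a further lymphoid list, had 712 ± 112 and 435 ± 48.9 CPM without overlap. It was the 1 gene with an unadjusted p below 0.05 among 16 tested genes of that list, of which 7 were positive and 9 negative. That is 6.25% of the list, against 2.24% of all genes higher at that p. Without overlap, 1 was higher and 1 lower (6.25% each, against 3.75% and 4.48% of all genes).

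RNAs of neutrophil granules were uneven among MAC-1+ samples. Of 12 neutrophil markers, 6 passed the filter, all with positive log2 fold changes, and 4 had an unadjusted p below 0.05 (2.24% of all genes were higher at that p), with a median of 4.65. Since a gene can pass the filter through the samples where it is high, the 6 members tested are not the list as a whole. Summed over all 12 markers, the level was 164, 960 and 6980 CPM in MAC-1+ replicates 1 to 3 and 112, 32.0, 159 and 92.9 CPM in MAC-1low replicates 1 to 4. MAC-1+ replicate 1 was thus just above the highest MAC-1low sample, and replicate 3 was far above all. Without MAC-1+ replicate 3, the median of the list was 2.30 and *Ngp*, *S100a8* and *S100a9* had an unadjusted p below 0.05, while *Camp* did not. In that setting 2.43% of all genes were higher at that p.

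*Ngp*, neutrophilic granule protein, was the member without overlap, with 454, 2395 and 11530 counts in MAC-1+ and 0, 0, 1 and 2 in MAC-1low samples, a ratio of pooled counts per depth of 6483 (counting interval 2218 to 31442, at 95% confidence). In edgeR its adjusted p was 0.257, with 0.0491 without MAC-1+ replicate 1, 0.418 without MAC-1+ replicate 3, 0.0171 without MAC-1- replicate 3 and 0.0875 under the stricter filter. *S100a8* and *S100a9*, the subunits of calprotectin, had 1987, 7403 and 98876 and 849, 3300 and 40044 counts in MAC-1+ samples. The MAC-1low samples had 1540, 468, 1905 and 1679 counts of *S100a8* and 271, 216, 873 and 335 of *S100a9*, so that MAC-1+ replicate 1 was within their range in CPM for both genes. The log2 fold change of *S100a9* was 4.86 (standard error 0.93, adjusted p = 0.257, edgeR) and 2.57 without MAC-1+ replicate 3 (adjusted p = 0.662). Without MAC-1+ replicate 1, *S100a8* and *S100a9* passed the threshold (adjusted p of 0.0547 and 0.0223). *Camp*, the antimicrobial peptide of secondary granules, had 166, 1960 and 23272 counts in MAC-1+ and 0, 0, 90 and 455 in MAC-1low samples.

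The primary granule genes *Mpo* and *Elane*, which myeloid progenitors make before secondary granules appear, were seen in 1 MAC-1+ sample alone, with 0, 0 and 4038 and 0, 0 and 4978 counts. In MAC-1low samples they had 0, 3, 2 and 0 and 124, 149, 0 and 0 counts. *Mpo* went from a log2 fold change of 9.64 to -3.36 and *Elane* from 4.18 to -9.11 when MAC-1+ replicate 3 was left out. Of 17 tested genes of the wider myeloid list, 13 had positive log2 fold changes, with a median of 0.72 and of 0.13 without this sample. *Car1*, the carbonic anhydrase of red cell precursors, was present in MAC-1+ replicates 1 and 3 (414 and 2677 counts) and at 0 in replicate 2 and all MAC-1low samples. *Hbb-bt*, an adult beta globin gene whose reads can be shared with its near-identical neighbour, had 85.1 and 38.1 CPM without overlap. Both belong to 16 tested erythroid genes of a further list, with 9 positive and 7 negative log2 fold changes and a median of 0.04. Without MAC-1+ replicate 3, 7 were positive and 9 negative, with a median of -0.24, and the median was -0.09 and -0.14 without MAC-1low replicate 1 or 2.

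For *S100a9*, whose level spans the widest range among MAC-1+ samples of the genes shown by sequence, the 250 upstream bases are given (RefSeq, GRCm38.p6, chr3:90695722-90695971, - strand, from 5′ to 3′). Capitals mark TTNNGNAA on either strand, the outer letters of sites bound by C/EBP factors of granulocytes, found 2 times. Of 12 neutrophil markers, 11 matched a RefSeq entry and 9 hold these letters (81.8%), against 36.8% of all windows and 12 of 31 promoters of the megakaryocyte lists (38.7%). Of the 11, 6 hold the PU.1 letters (54.5%).
S100a9: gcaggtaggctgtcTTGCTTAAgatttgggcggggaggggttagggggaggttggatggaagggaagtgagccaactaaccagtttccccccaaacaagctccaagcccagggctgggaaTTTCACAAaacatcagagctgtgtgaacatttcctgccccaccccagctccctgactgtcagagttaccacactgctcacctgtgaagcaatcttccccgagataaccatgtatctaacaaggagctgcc

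Markers of other cells were sparse. Of 14 monocyte and macrophage markers 2 were tested, with summed levels of 22.9 to 143 CPM in MAC-1+ and 18.02 to 37.2 CPM in MAC-1low samples. Of 14 NK and T cell markers 3 were tested, with sums of 16.05 to 176 and 164 to 374 CPM. Most of each sum came from *Nkg7*, a granule gene of killer lymphocytes (337, 694 and 4446 against 2125, 8122, 4323 and 8996 counts). B cell markers summed to 16.8 to 119 and 32.5 to 56.1 CPM, mast cell and basophil markers to 0.0628 to 39.8 and 26.1 to 120.3 CPM, and endothelial and stromal markers to 64.9 to 118 and 61.3 to 128 CPM. Of 12 B cell markers 5, of 14 NK and T cell markers 5 and of 9 mast cell and basophil markers 6 had no count in any of the 7 samples. Whether other cells contributed to any result was not tested.

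RNAs of DNA replication and mitosis had more negative than positive log2 fold changes, and few had an unadjusted p below 0.05. The study's enrichment analysis had found cell-cycle genes enriched in MAC-1- HSCs against the same MAC-1+ samples. The direction of these lists is therefore not independent evidence. Of 40 S phase genes, 30 had negative log2 fold changes (median -0.32), 3 had an unadjusted p below 0.05 and 4 did not overlap, all lower (7.5% and 10% of the list, against 4.61% and 4.48% of all genes). The summed S phase level was 3331, 2750 and 2524 CPM in MAC-1+ and 4048, 3876, 3970 and 4210 CPM in MAC-1low samples, so that the populations did not overlap. Of 42 G2 and mitosis genes, 26 were negative (median -0.29), 4 had an unadjusted p below 0.05 and 6 did not overlap, all lower (9.52% and 14.3% of the list). Of the list 61.9% was negative, and the sum overlapped through MAC-1+ replicate 1 (3889 CPM against 3865 to 5181 CPM). Without MAC-1+ replicate 1, 2 or 3, 7, 3 and 5 S phase genes had an unadjusted p below 0.05, all lower. For the mitosis genes, 6, 4 and 2 were lower and 0, 0 and 1 higher at that p, and the median was -0.50, -0.40 and -0.28. In these settings 4.48, 3.36 and 3.85% of all genes were lower and 2.55, 2.18 and 2.43% higher at that p.

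*Cdk6*, the cyclin-dependent kinase that controls how fast stem cells leave quiescence, had 1294, 1494 and 1124 counts in MAC-1+ and 2927, 2328, 3446 and 4844 in MAC-1low samples. All MAC-1+ samples were lower in CPM (66.6 ± 25.1, SD, n = 3, and 161 ± 36.3, SD, n = 4), with a log2 fold change of -1.28 and a standard error of 0.31 (edgeR, adjusted p = 0.474; DESeq2, 0.0107). *Tipin*, a replication fork protector, and *Tyms*, thymidylate synthase, were lower without overlap, at 278 against 603 CPM and 76.8 against 183 CPM (log2 fold changes -1.12 and -1.25). *Ube2c*, a ubiquitin-conjugating enzyme of mitotic exit, had 2258, 950 and 508 counts in MAC-1+ and 3115, 5709, 2683 and 3315 in MAC-1low samples. *Dlgap5*, a spindle protein, had 1, 2 and 74 counts in MAC-1+ and 23, 441, 445 and 843 in MAC-1low samples and overlapped through MAC-1+ replicate 3 (log2 fold change -4.19 ± 1.81, SE, edgeR adjusted p = 0.706). *Ccnb2*, a mitotic cyclin, *Gmnn*, the licensing inhibitor geminin, *Spc25*, a kinetochore subunit, and *Mki67*, the proliferation marker, overlapped through MAC-1+ replicate 1, whose levels of *Gmnn* (156 CPM), *Spc25* (312 CPM) and *Mki67* (268 CPM) were those of MAC-1low samples. Without that sample, *Gmnn* and *Spc25*, the latter named after its values were seen, passed the threshold as lower (edgeR, adjusted p of 0.0491 and 0.0190).

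Regulators of cell-cycle entry were balanced, with 16 positive and 14 negative log2 fold changes among 30 (median 0.08). That median ran from -0.06 without MAC-1+ replicate 2 to 0.21 without MAC-1low replicate 3, and was below 0 without MAC-1low replicate 1 or 4 too. *E2f1*, a transcription factor of the G1/S transition, was lower without overlap at 0.210 against 2.36 CPM (log2 fold change -3.46, edgeR adjusted p = 0.728). Its MAC-1+ level was near the floor, since 3 counts are 0.119 to 0.188 CPM in these samples. *Cdkn2d*, an inhibitor of CDK4 and CDK6, was higher without overlap at 77.5 against 40.9 CPM (log2 fold change 0.92 ± 0.36, SE, edgeR adjusted p = 0.682), and *Rbl2*, the retinoblastoma relative p130 of resting cells, had 62.2 against 26.01 CPM with overlap. *Cdkn1c*, the inhibitor p57 that holds stem cells in quiescence, was scarce, with 340, 40 and 40 counts in MAC-1+ and 125, 62, 88 and 21 in MAC-1low samples, and overlapped.

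Nuclear genes of the respiratory complexes, which build the electron transport chain and ATP synthase of mitochondria, had negative log2 fold changes in 68 of 76 cases (median -0.37). Of these, 23 had an unadjusted p below 0.05 and 12 did not overlap in the lower direction (30.3% and 15.8% of the list, against 4.61% and 4.48% of all genes), and 1 and 1 in the higher direction. Their summed level was 33399, 28251 and 28213 CPM in MAC-1+ and 36024, 40286, 35611 and 39240 CPM in MAC-1low samples, without overlap. The study had found oxidative phosphorylation genes enriched in MAC-1- HSCs against the same MAC-1+ samples, so the direction is not independent evidence. The number of negative members was 67, 68 and 68 without MAC-1+ replicate 1, 2 or 3, and 28, 19 and 16 of them had an unadjusted p below 0.05. Of all genes, 4.48, 3.36 and 3.85% were lower at that p in these settings. The share of mitochondrially encoded counts given above overlapped between the populations.

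*Cox8a*, a subunit of cytochrome c oxidase, had 570, 532 and 523 CPM in MAC-1+ and 704, 872, 728 and 715 CPM in MAC-1low samples, with a log2 fold change of -0.48 and a standard error of 0.11 (edgeR, adjusted p = 0.471; DESeq2, 0.00712). *Ndufa1* of complex I, *Uqcrq* of complex III and *Cycs*, cytochrome c itself, were also lower in each MAC-1+ sample, with log2 fold changes of -0.53, -0.51 and -0.76. All 4 genes were higher still in MAC-1- HSCs, at means of 1284, 1095, 672 and 748 CPM in the order named.

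MYC network and ribosome biogenesis genes had negative log2 fold changes in 29 of 40 cases (median -0.44), and 7 had an unadjusted p below 0.05 and 7 did not overlap in the lower direction, against 1 and 1 in the higher direction. These are 17.5% and 17.5% of the list as lower, against 4.61% and 4.48% of all genes, and 2.5% and 2.5% as higher, against 2.24% and 3.75%. Their sums were 7298, 4747 and 5595 CPM in MAC-1+ and 9044, 7971, 7779 and 8835 CPM in MAC-1low samples. MYC signaling too had been found enriched by the study in MAC-1- HSCs against these MAC-1+ samples, so the direction is not independent evidence. *Nme1*, a nucleoside diphosphate kinase and MYC target, had 6920, 3268 and 8542 counts in MAC-1+ and 6928, 15219, 11307 and 14708 in MAC-1low samples and did not overlap in CPM (log2 fold change -0.96 ± 0.24, SE, with an adjusted p of 0.474 in edgeR and 0.0120 in DESeq2). *Srm*, spermidine synthase, and *Eif5a*, the translation factor whose modification uses spermidine, were lower without overlap at 28.7 against 81.3 CPM and 388 against 697 CPM. *Myc* itself overlapped, at 67.0 ± 22.6 and 90.8 ± 13.1 CPM.

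Of 40 interferon-stimulated genes, 31 had positive log2 fold changes (median 0.30), and 2 had an unadjusted p below 0.05 in the higher direction and 1 in the lower, while 5 did not overlap as higher and 1 as lower. At that p, 5% of the list was higher, against 2.24% of all genes, and 2.5% lower, against 4.61%. Without overlap, 12.5% was higher, against 3.75%. *Ifitm1*, described above, and *Iigp1*, a GTPase of pathogen defence, were the 2 higher ones, the latter at 395 ± 109.6 and 194 ± 68.6 CPM (log2 fold change 1.03 ± 0.46, SE, edgeR adjusted p = 0.718). Of 27 immediate-early genes, which answer stress and handling within minutes, 17 were positive and 9 negative (median 0.27), and none had an unadjusted p below 0.05. Without MAC-1+ replicate 1, 6 of them were higher and 1 was lower at that p, with a median of 0.47. In that setting 2.55% of all genes were higher and 4.48% lower at that p. Of 32 adhesion and homing genes, 22 were positive with a median of 0.33, which was 0.50 without MAC-1+ replicate 2 and also without MAC-1low replicate 1. At an unadjusted p below 0.05, 1 was higher and 1 lower (3.125% each, against 2.24% and 4.61% of all genes). Without overlap, 0 were higher and 1 was lower (0% and 3.125%, against 3.75% and 4.48%). *Cd47*, the signal that protects cells from being engulfed, was lower without overlap at 331 against 471 CPM. *Cxcr4*, the receptor that retains stem cells in marrow, had 3519, 2310 and 5455 counts in MAC-1+ and 2596, 2119, 1964 and 1944 in MAC-1low samples and overlapped in CPM through MAC-1low replicate 1. *Alcam*, an adhesion molecule of stem cells, had 2083, 1780 and 1360 counts in MAC-1+ and 340, 203, 1354 and 887 in MAC-1low samples, overlapping through MAC-1low replicate 3. The log2 fold changes of *Cxcr4* and *Alcam* were 0.71 and 1.41, with adjusted p of 0.929 and 0.902 (edgeR).

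Further gaps outside the lists were between absence and presence. Of the tested genes, 37 (0.271%) had no count in any MAC-1+ sample and at least 1 in each MAC-1low sample, and 12 (0.0878%) showed the opposite. The first pattern asks for absence in fewer samples than the second and is easier to meet, so these numbers are not comparable. The genes named next were picked for the widest fold changes without overlap, so their separation follows from the choice and is not evidence. In the main edgeR fit their adjusted p ran from 0.474 to 0.682. *Amdhd2*, an enzyme of amino sugar metabolism, had 80, 262, 269 and 119 counts in MAC-1low samples and *Cd180*, a Toll-like receptor relative, had 116, 104, 153 and 425, both with 0 in each MAC-1+ sample (at least 58.8-fold and 59.5-fold lower). *Cenpu*, a centromere protein, had 0, 0 and 1 against 830, 586, 461 and 320 counts (ratio 1624, counting interval 291 to 64181). *Mc5r*, a melanocortin receptor, had 0, 0 and 1 against 184, 333, 873 and 730 counts (ratio 1567, counting interval 281 to 61933). In the higher direction, *Slc7a4*, a transporter family member, had 25, 609 and 572 against 3, 0, 2 and 0 counts, *Kank3* 98, 539 and 56 against 1, 1, 0 and 0 (ratio 469, counting interval 129 to 3878), and *Ndnf* 441, 151 and 112 against 9, 0, 0 and 0. In the 3 MAC-1- samples, *Amdhd2*, *Cd180*, *Cenpu*, *Slc7a4* and *Kank3* were present in each, *Ndnf* in 1 and *Mc5r* in none.

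Among genes with counts in every sample, *Mydgf*, a secreted growth factor of myeloid cells, and *Wfdc17*, a whey acidic protein family gene of activated myeloid cells, stood out and were named after their values were seen. *Mydgf* had 331, 53 and 169 counts in MAC-1+ and 1072, 1318, 2043 and 1739 in MAC-1low samples (log2 fold change -3.11 ± 0.59, SE, with an adjusted p of 0.257 in edgeR and 2.2e-06 in DESeq2). Its adjusted p in edgeR was 0.0491 without MAC-1+ replicate 1. *Wfdc17* had 10449, 8828 and 14814 counts in MAC-1+, 1481, 3999, 2714 and 6376 in MAC-1low and 120, 93 and 391 in MAC-1- samples, each population apart from the next. Its spread among MAC-1+ samples was small (546 ± 45.6 CPM, SD, n = 3, against 163 ± 63.1 CPM, SD, n = 4), the adjusted p was 0.535 in edgeR and 0.0150 in limma-voom. The neighbouring *Wfdc21* had 290, 663 and 2643 counts in MAC-1+ and 0, 71, 0 and 0 in MAC-1low samples.

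**Figure D5:**
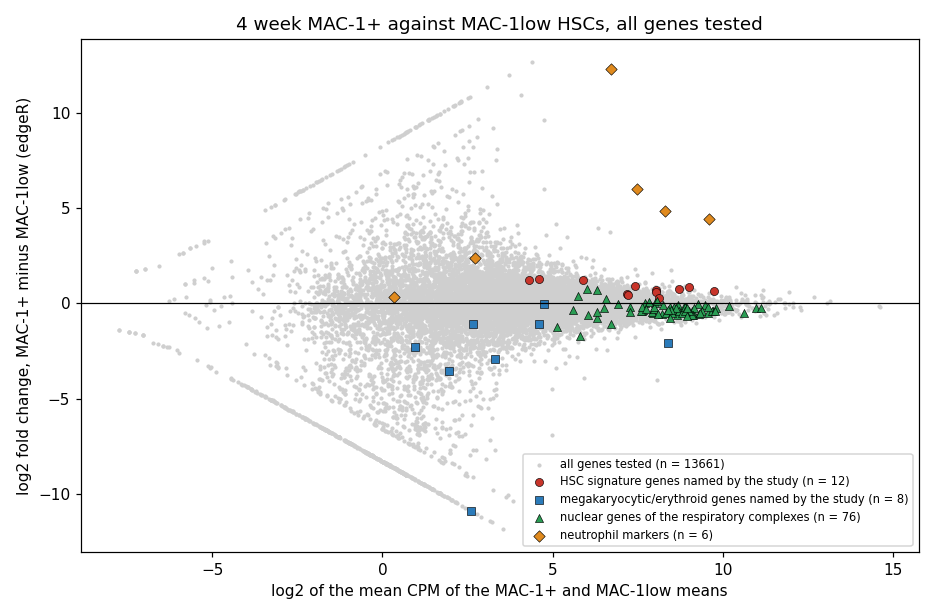
Log2 fold change of MAC-1+ against MAC-1low HSCs (y axis, edgeR) by mean level (x axis, log2 of the mean CPM of both populations) for 13661 tested genes in grey, with 4 lists in colour. Scarce genes scatter beyond 10 in both directions, the 12 HSC signature genes lie above 0 and the 8 megakaryocytic/erythroid genes below 0, and the respiratory genes sit just under 0 at high levels.

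The step from MAC-1low to MAC-1+ was also set against the step from MAC-1- to MAC-1low. The 2 steps share the MAC-1low samples, so a high or low value there moves them in opposite directions, and they are given side by side. For 0 genes did the steps differ at an adjusted p of 0.1 in edgeR (640, or 4.68%, at an unadjusted p below 0.05), while DESeq2 called 206 and limma-voom 5. The HSC signature had a median of 0.72 for the upper and 1.04 for the lower step, the megakaryocytic/erythroid list -2.19 and -1.97, and the respiratory genes -0.37 and -0.46. For *Pf4* the upper step was -2.07 and the lower -3.19, for *Procr* 1.24 and 2.33, and for *Cdk6* -1.28 and -0.73, none of them different between the steps (edgeR, adjusted p = 1 for each). *Cdkn2d* went the other way in the lower step (-0.77, against 0.92 in the upper step, edgeR adjusted p of the difference 0.979 and unadjusted p = 0.0167). *Spi1* and *Ikzf2* differed mostly at the lower step, with 3.31 and 1.54 there against 0.50 and 0.23 at the upper, and *Mydgf* mostly at the upper, with -0.16 against -3.11 (adjusted p of each difference 0.979).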

How the data were processed

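Gene counts of 16 samples were used as deposited: the authors aligned the reads with STAR in the nf-core RNA-seq workflow and merged the samples into 1 table of raw counts per gene, and DESeq2 is named in the submitters' processing notes. The counting program, genome build and annotation were not given in the labels, methods or header. Of 46078 identifiers, 98.2% matched GENCODE M21 (GRCm38), the source of coordinates. No line lacked a gene, and 214 gene names occurred more than once. Counts were normalized with TMM, filtered with filterByExpr at its defaults and fitted with edgeR 4.0.16 in R 4.3.3 (quasi-likelihood, robust), with 1 mean for each of 5 populations and the 9 samples outside the comparison sharing the estimate of spread. Genes were called at a Benjamini-Hochberg adjusted p of 0.1 over all tested genes and an absolute log2 fold change of 1, and p-values are two-sided. DESeq2 1.42.0 and limma 3.58.1 (voom) were alternatives, as were other filters, scalings, sample sets and the omission of each sample. DESeq2 on all genes, DESeq2 without single MAC-1+ samples and list counts without them were added after seeing the data. The tests were checked on simulated data whose spread between samples was capped below the biological coefficient of variation of 1.13. The check thus does not show how the tools behave at the real spread. CPM used TMM-scaled totals, and bounds allowed 3 counts per library.

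The comparison and the gene lists were chosen with earlier results of these data known, and each list is described by counts and its median without a test. Named genes were all members of the lists named by the study and the beta-2 integrins, *Cxcr4*, *Alcam*, *Mki67*, *Myc*, *Cdk6* and *Cdkn1c*, any called gene, members of other lists among the 4 with the smallest p, and genes from the 12 widest fold changes in each direction with an unadjusted p below 0.05, a mean of at least 50 normalized counts, no overlap and a symbol. Exceptions are marked in the text. The values of 1 gene that this rule names are not reported here.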

Additional observations from a re-analysis of the deposited data

Results flagged for a closer look

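In the 4 MAC-1low samples, 8 of 84 examined genes (9.52%) had 1 sample far from the other 3 by Dixon's ratio. Chance gives this in about 1 of 20 groups of normally distributed values, which CPM need not be. Where only 1 sample has counts, as for *Wfdc21* and *Ndnf*, the ratio is 1 whatever the level. The share of 9.52% is therefore not read against that rate. In replicate 2, *Cdk6* was low at 107 CPM against 177 to 182 CPM in the others, and *Hoxa9* was low at 89.3 CPM against 169.7 to 173 CPM. The same replicate was high in *Cox8a* (872 CPM against 704 to 728 CPM), *Ets1* (20.7 CPM against 1.499 to 2.88 CPM), *Mfsd2b* (22.5 CPM against 0.490 to 3.93 CPM) and *Wfdc21* (3.26 CPM, with no count in the others). *Mydgf* was high in replicate 3, at 105 CPM against 60.5 to 65.7 CPM. *Ndnf* was found in replicate 1 at 0.552 CPM and had no count in the others. The MAC-1+ population, with 3 samples, was not examined in this way.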

How the results depend on the processing

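The count of 0 called genes became 269 with DESeq2, 369 with DESeq2 on all genes, 1 with limma-voom, 5 without a filter on low counts, 3 with the stricter filter (1 of them *Pf4* and 1 *Ngp*) and 5 with only the 4 week groups. It was 0 with DESeq2's size factors, with only the 2 populations and with thinned counts. DESeq2 without MAC-1+ replicate 1, 2 or 3 called 462, 383 and 502. Leaving out single samples gave 0 to 18 called genes, with 18 without MAC-1+ replicate 1, 2 without MAC-1+ replicate 3 and 1 each without MAC-1- replicate 3 (*Ngp*), SS MAC-1low replicate 3 (*Gp1bb*) and SS MAC-1- replicate 3 (*Ciapin1*). Genes at an unadjusted p below 0.05 numbered 2381 without a filter, as more genes were tested (31871), and 588 with the stricter one (9815 tested). Genes that differed between the 2 steps numbered 206 with DESeq2, 5 with limma-voom, 1 without a filter, 1 with only the 4 week groups and 0 to 1 when single samples were left out. Where no construction shows it, the cause was not tested.

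Same-numbered MAC-1+ and MAC-1low samples deviated together at r = 0.0255, 0.0104 and 0.00972. These values were under the 0.1 asked for pairing, so the main fit did not pair the samples. Against MAC-1low samples of other numbers, the highest r was 0.00835, -0.00180 and 0.0160. Whether same-numbered samples shared an animal or a batch was not tested. With the replicate number of the sample titles as a block, 0 genes were called. In edgeR, 715 (all samples) or 613 (only the 2 populations) then had an unadjusted p below 0.05. The replicate block turned *Itgb2* to -0.27 (all samples) or -0.11 (2 populations), *Cdkn1c* to -0.19 and *Elane* to -5.44.

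Other reversals were *Vwf*, at 0.012 with DESeq2, 0.012 with its size factors and 0.019 with thinned counts, and *Cd86*, at 0.35 with limma-voom. Leaving out single samples moved *Vwf* from -0.82 to 0.33, *Cd86* from -2.47 to 0.42, *Cdkn1c* from -0.95 to 1.31, *Elane* from -9.11 to 4.78, *Mpo* from -3.36 to 10.39, *Flt3* from -0.58 to 0.38, *Ikzf1* from -0.18 to 0.48, *Gfi1b* from -1.39 to 0.10, *Itgb2* from -0.17 to 0.68 and *Kit* from -0.0017 to 0.47. Values of named genes under the alternatives were sorted by direction and by an adjusted p of 0.1 alone, without a threshold on the fold change. Of them, 2092 kept their direction and side of that p, 53 passed it and 25 reversed.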
